A study of Oryza sativa and Triticum aestivum and Oryza sativa Japonica Group with 26 samples.

Results

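The data described are the 4 H3K4me1 peak lists of rice, chosen by their titles from the 26 samples of the series. H3K4me1, monomethylation of histone H3 at lysine 4, was mapped by ChIP-seq, sequencing of immunoprecipitated chromatin, in young panicles from field-grown plants. HHZ (huanghuazhan), an indica cultivar, and JZ1560 (jizi), a japonica cultivar, each gave 2 libraries, made with the same Millipore antibody, and no treatment is named for either. The series also held lists of other histone marks and 1 input list (chromatin sequenced without enrichment) per cultivar, which served here as reference, and wheat, RNA and re-sequencing samples, which were not used here. The labels do not say that the replicates of a cultivar came from separate plants, so spreads between them may be technical. Cultivar and subspecies cannot be told apart, since each subspecies was represented by 1 cultivar.

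In plants, H3K4me1 typically lies over the bodies of transcribed genes, downstream of the trimethylated form, H3K4me3, which marks the first nucleosomes after the start site. H3K36me3, deposited during elongation by RNA polymerase II, covers much of the same gene bodies. In animals H3K4me1 is better known as a mark of enhancers. A panicle is the flowering branch of the rice plant and holds many cell types, so a bulk peak list cannot tell fewer marked cells from less mark per cell.

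The H3K4me1 bases shared by both cultivars lay mainly inside H3K36me3 territory, the placement known for the mark in plants. Of the JZ1560 bases that HHZ shared, HHZ H3K36me3 peaks held 85.5% (range 85.2% to 85.8% over the 4 pairs of 1 HHZ and 1 JZ1560 library), against 16.7% of the whole sequence. HHZ H3K4me3 peaks held 14.6% of those bases, against 8.04% of the whole sequence. Inputs were not blank either: 42.3% and 42.0% of the HHZ H3K4me1 bases lay inside peaks of the HHZ input, and 22.0% and 22.1% of the JZ1560 bases inside peaks of the JZ1560 input. The share of bases inside input was thus higher in HHZ. Of whole peaks, 53.4% and 52.9% touched their own input in HHZ and 60.4% and 61.1% in JZ1560. The JZ1560 peaks were wider, and a wider peak touches an input peak more easily, so these shares do not offset those of bases. The part of input in the results that follow was not tested beyond the values given with them. No read counts come with peak lists, so the depth of each library is unknown.

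H3K4me1 peaks were narrow in HHZ and broad in JZ1560. The median peak was 1114 bp wide in HHZ replicate 1 and 1079 bp in replicate 2, and 3331 bp and 3500 bp in JZ1560 replicates 1 and 2. Each JZ1560 library thus exceeded each HHZ library, and the gap was far larger than the spread within a cultivar. The group means were 1096.5 ± 24.7 bp for HHZ and 3415.5 ± 120 bp for JZ1560 (SD, n = 2 each), a ratio of 3.11. An exact permutation test, two-sided, returned p = 0.3333, the lowest value open to 2 libraries against 2, so no difference between the cultivars could pass 0.05 in this design.

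The whole distribution was shifted, not only its centre. Peaks under 1 kb made up 41.9% and 43.9% of the HHZ lists and 1.42% and 0.755% of the JZ1560 lists. Peaks of 5 kb or more were 0.508% and 0.473% in HHZ and 23.2% and 25.7% in JZ1560. The middle range, from the first to the third quartile, was 830 to 1591 bp in HHZ replicate 1 and 2275 to 4855 bp in JZ1560 replicate 1, so these ranges did not overlap. Only 3 peaks in each HHZ list reached 10 kb, against 537 and 590 in JZ1560.

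**Figure D1:**
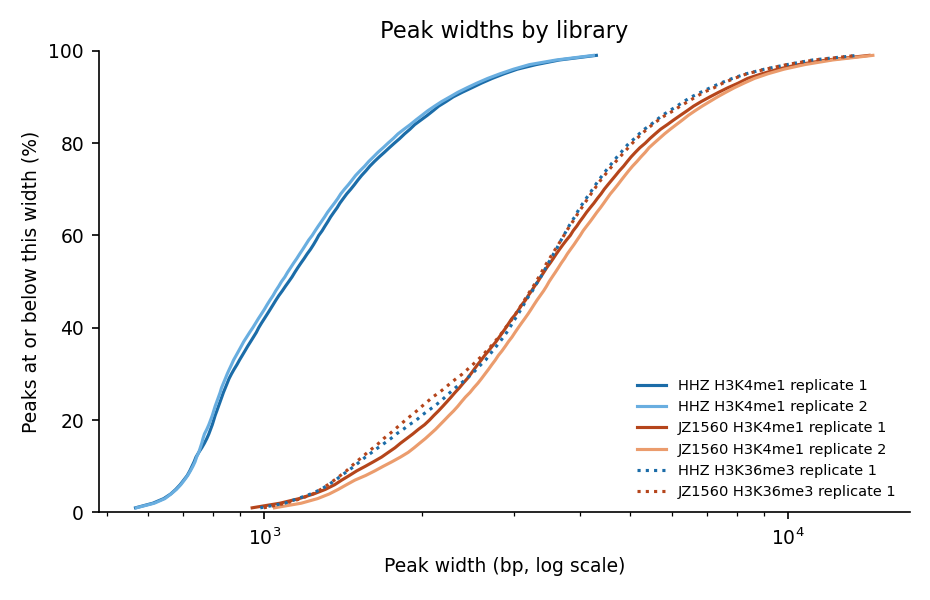
Share of peaks (y axis, %) at or below a given width (x axis, bp, log scale) for the 4 H3K4me1 lists and, dotted, the H3K36me3 list of each cultivar. The HHZ H3K4me1 curves, with medians of 1114 and 1079 bp, lie to the left of all others, while the JZ1560 H3K4me1 curves run beside both H3K36me3 curves.

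H3K36me3, mapped in the same tissues, had no such gap. Its median peak was 3329.5 bp wide in HHZ and 3305 bp in JZ1560, with 1 library each and no test. In JZ1560 the H3K4me1 widths were therefore close to those of the H3K36me3 list, and in HHZ they were not. H3K4me3 showed that widths can also differ inside a cultivar: the JZ1560 replicates had medians of 1302 and 2045 bp, and the HHZ list 1525 bp. The H3K4me1 replicates of a cultivar differed far less.

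Width moved with the peak score, a value given by the authors' peak caller on a scale that is not defined in the file headers, and used here only to rank and bin peaks. The median score was 93.2 and 91.6 in HHZ and 683 and 884 in JZ1560, and 1016 and 1696 JZ1560 peaks sat at or above 3100, where scores pile up, against 1 peak in each HHZ list. Among peaks scored 50 to 100, the median width was 853 and 842 bp in HHZ and 1265 and 1326 bp in JZ1560. Within the range of 200 to 500, it was 2498 and 2483 bp in HHZ and 2485.5 and 2433 bp in JZ1560, so the cultivars no longer stood apart there. Above that the order turned: from 500 to 1000 the HHZ peaks, 193 and 184 in number, had medians of 4711 and 4669.5 bp, and the JZ1560 peaks, 3629 and 3324 in number, 3385 and 3192 bp. The broad JZ1560 lists were thus lists of high scores; the part of sequencing depth, which is unknown, was not tested.

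Narrow peaks came in larger numbers. HHZ held 20280 and 20281 peaks and JZ1560 15373 and 15503, with no overlap between the groups (20280.5 ± 0.707 and 15438 ± 91.9, SD, n = 2 each; exact two-sided permutation p = 0.3333, the smallest possible). This order depended on where peaks were split: joining peaks across gaps of up to 1000 bp turned the HHZ excess of 4842.5 peaks into -249.5, and keeping only scores of 100 or more gave -5207. Close neighbours were indeed common in HHZ, where 35.8% and 36.3% of gaps between successive peaks were at most 1 kb long, against 13.8% and 14.8% in JZ1560. The covered length was 27.5 and 26.9 Mb in HHZ and 61.4 and 64.7 Mb in JZ1560, so fewer peaks covered 2.32 times as much sequence. Without peaks that touched a peak of their own cultivar's input, the mean covered length fell in both cultivars. It went from 27.2 to 10.9 Mb in HHZ and from 63.0 to 21.9 Mb in JZ1560. The difference went from -35.8 to -11.1 Mb, a change in length that does not measure the relative contrast.

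Most HHZ peaks of the full lists lay in JZ1560 territory. An HHZ peak was assigned to the JZ1560 peak that held its midpoint. The peaks of JZ1560 replicates 1 and 2 covered 16.4% and 17.3% of the whole sequence. Over the 4 pairs of libraries, 94.4% ± 0.614 (SD; range 93.7% to 95.1%) of HHZ peaks had their midpoint inside a JZ1560 peak, and 87.4% lay wholly inside. The pairs share libraries, so their SD describes these lists and is not an error over independent samples. In the other direction, 44.2% to 46.7% of JZ1560 peaks had their midpoint inside an HHZ peak. HHZ replicates 1 and 2 covered 7.34% and 7.19% of the whole sequence. The nesting was thus one-sided in the full lists, an order that a midpoint rule favours when widths differ so much. By any shared base, 68.1% to 69.4% of JZ1560 peaks met an HHZ peak, against 95.3% in the first direction. Without peaks that touched a peak of their own cultivar's input, 35.5% of HHZ peaks had their midpoint inside a JZ1560 peak and 63.4% of JZ1560 peaks held none, a setting that also removes JZ1560 peaks that had held the remaining HHZ peaks.

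A JZ1560 peak that held any HHZ midpoint held 1.82 ± 0.0159 of them on average (SD over 4 pairs; range 1.80 to 1.84), and the fullest held 15 to 19. Of all JZ1560 peaks, 31.8% held none, 36.1% held 1, 19.1% held 2, 7.48% held 3, 3.01% held 4 and 2.51% held 5 or more. Because full peaks take many HHZ peaks each, 70.9% of the HHZ peaks inside JZ1560 territory shared their JZ1560 peak with another. The median width of the JZ1560 peaks rose at each step. It was 2240 bp with no HHZ midpoint, then 3213, 4519, 6226 and 8304 bp, and 12449 bp with 5 or more. A longer peak has more room for midpoints, so some rise is given by length alone.

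**Figure D2:**
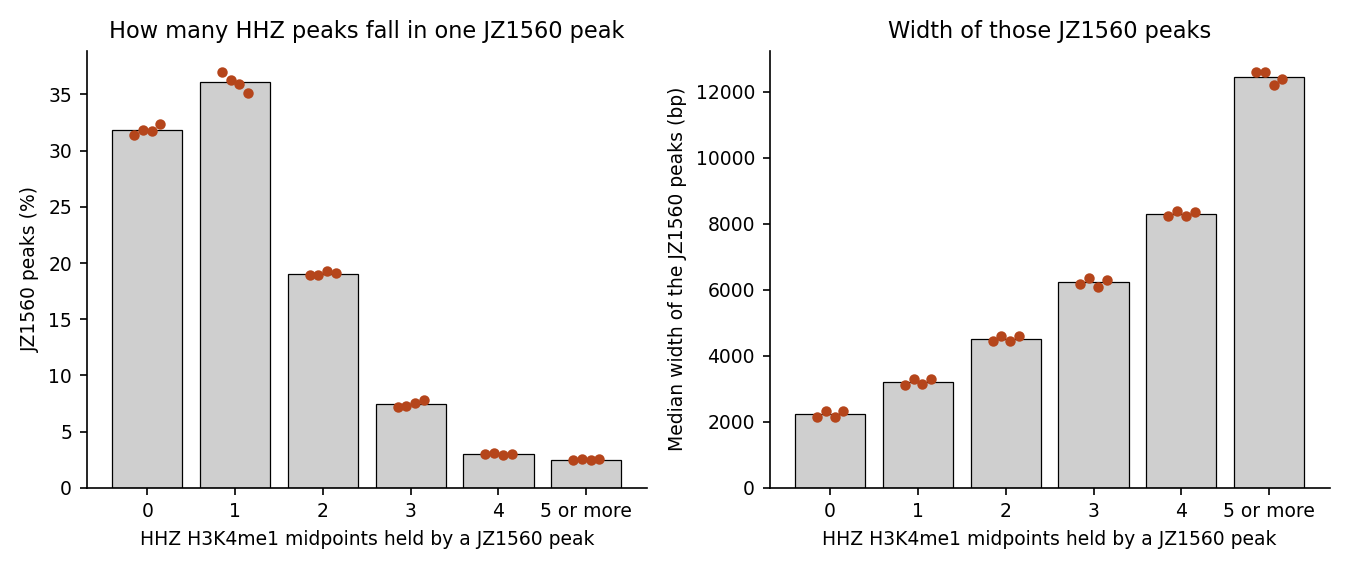
Left, JZ1560 H3K4me1 peaks (y axis, %) by the number of HHZ H3K4me1 midpoints they held (x axis); right, the median width (y axis, bp) of the same classes. Bars are means and points the 4 pairs of libraries; 31.8% of JZ1560 peaks held none, and widths climb from 2240 to 12449 bp.

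Such splitting was much rarer between replicates and, across cultivars, in H3K36me3, H3K4me3 and the inputs; H3K27ac and H3K27me3 were not compared in this way. Peaks of 1 HHZ replicate fell into occupied peaks of the other at 1.06 and 1.07 per peak, and JZ1560 replicates at 1.03 and 1.003. Across cultivars the number was 1.02 for H3K36me3, 1.01 and 1.03 for H3K4me3 and 1.04 for the inputs. The H3K4me1 value of 1.82 was above each of these, though no test was made because the reference marks had 1 HHZ library each. The lists of each reference pair were also much closer in width, which leaves little room for several peaks in 1. The comparison thus does not separate splitting from the difference in width. When peaks of each list were joined across gaps of up to 500 bp, the H3K4me1 value dropped to 1.38, and across gaps of up to 2000 bp to 1.22, so most of the multiplicity came from HHZ peaks that lay close together. Among peaks of score 100 or more it was 1.39.

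The widest JZ1560 peak shows the pattern at single-peak scale. In JZ1560 replicate 1 it spanned chr2:15931790-15975574, 43.8 kb with a score of 3100, and in replicate 2 it was 43.9 kb wide. HHZ replicate 1 had 13 separate peaks there, from 1016 to 3536 bp wide, which covered 53.7% of it, and HHZ replicate 2 had 19, from 670 to 5128 bp wide, which covered 63.6%. The cuts between pieces were partly shared by the HHZ replicates and partly not. Replicate 2 called chr2:15938497-15943624 as a single peak, whereas replicate 1 divided that stretch into chr2:15938108-15940907 and chr2:15941116-15943624, which ends at the same base. HHZ H3K36me3 covered 97.6% and JZ1560 H3K36me3 98.0% of the region, so a continuous domain was called there in HHZ for H3K36me3 but not for H3K4me1.

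The other JZ1560 replicate 1 peaks that held the most HHZ midpoints were alike in this. The peak at chr10:22332955-22364776 (31.8 kb) held 15 and 17 in HHZ replicates 1 and 2, which covered 86.9% and 86.2% of it. The peak at chr6:17938372-17970614 (32.2 kb) held 15 in each, and that at chr10:16710165-16742146 (32.0 kb) 14 and 16. At chr4:9888684-9916163 (27.5 kb) there were 15 and 14 HHZ midpoints, but 97.0% of that region also lay inside JZ1560 input peaks. In the other 4 regions of this kind the JZ1560 input covered at most 10.9%. The HHZ input covered 17.9% to 36.5% of the 5 regions, against 12.3% of the whole sequence. HHZ H3K36me3 covered 90.9% to 97.6% of these 5 regions.

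HHZ list replicates 1 and 2 shared their widest peak, chr12:20506392-20518800 in replicate 1 (12.4 kb). It lay entirely inside peaks of both inputs and was touched by all 9 ChIP lists of HHZ and all 9 of JZ1560. The next widest in HHZ, chr2:10975213-10986269 (11.1 kb) and, in replicate 2, chr2:2907483-2918419 (10.9 kb), had 57.6% and 30.6% of their bases in the HHZ input. HHZ H3K36me3 covered all of them.

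HHZ midpoints were sparse at the edges of the JZ1560 peaks that held them. With each JZ1560 peak divided into 10 equal segments, 3.40% and 3.34% of HHZ midpoints lay in the first and last segment and 12.8% and 12.7% in the middle pair, where an even spread would give 10% in each. With the peak divided into 3 equal parts, the central part held 42.3% ± 0.277 (SD over 4 pairs; range 42.0% to 42.6%), against 33.3% for an even spread. A midpoint cannot lie at the edge of a peak that holds the whole of its own peak, so width alone draws midpoints inwards. When each wholly held peak was instead placed by its start along the range that its width left free, the central part held 29.7%, below the even share. Pooled over single and multiple HHZ peaks, no central excess was left by this placement, which drops peaks that cross an edge. Peaks that share a JZ1560 peak exclude each other, so an even spread is no exact reference for the pooled share.

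Single and multiple HHZ peaks differed in position. JZ1560 peaks with 1 HHZ midpoint had it in the central part in 60.6% of cases, with 19.99% and 19.2% in the 2 middle segments and 1.07% and 0.967% in the outermost. Corrected for free room, the share was 35.2% (range 34.7% to 36.0%), slightly above the even share. Where a JZ1560 peak held 2 or more, the midpoints formed a flat distribution with shoulders at 12.6% and 12.7% in segments 3 and 8 and a shallow dip to 9.86% in segment 5. Corrected for free room, 27.6% of these lay in the central part. Members of a group cannot overlap, so several in 1 peak exclude each other from the same place.

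Counted by bases, HHZ peaks covered 50.5% of the middle pair of the 10 segments of JZ1560 peaks. They covered 19.3% of the outermost segments at both ends combined, a ratio of 0.383 (range 0.355 to 0.410). A single HHZ peak much narrower than its JZ1560 peak cannot reach both outermost segments, so nesting by itself lowers the ratio. The ratio also depends on where the HHZ peaks lie, and it was given no value for an even spread. It was 0.798 and 0.944 between the JZ1560 replicates and 0.823 and 0.793 between the HHZ replicates. For H3K36me3 across cultivars it was 0.752, and for the inputs 0.729. H3K4me3 gave 0.775 against JZ1560 replicate 1 and 0.246 against the broad replicate 2, so a low ratio also appeared where H3K4me3 was compared with a broader list of the same mark.

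Across JZ1560 peaks of 3 kb or more, 8842 and 9509 in replicates 1 and 2, the HHZ cover rose from 2.80% in the segment just outside to 22.8% in the first of the 10 segments inside. It reached 45.0% in the second segment and stayed between 52.2% and 54.5% from the third to the eighth. HHZ H3K4me3 ran the other way, from 43.1% in the first segment to 0.968% at the centre. HHZ H3K36me3 climbed from 51.6% to 86.1%. HHZ input cover was 39.0% in the first segment and 29.3% at the centre, so input peaks leaned to the edges, opposite to the HHZ H3K4me1 peaks.

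**Figure D3:**
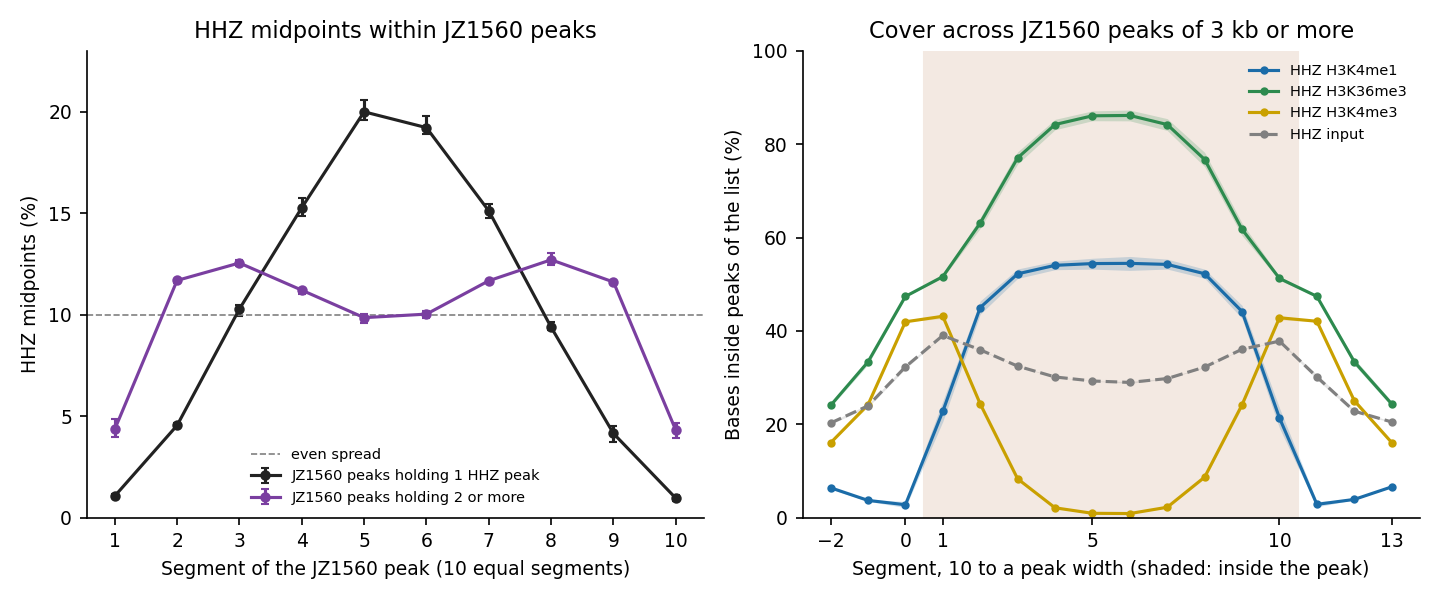
Left, HHZ H3K4me1 midpoints (y axis, %) by position in the JZ1560 peak that held them (x axis, 10 equal segments), for JZ1560 peaks with 1 and with 2 or more; error bars span the 4 pairs and the dashed line is an even 10%. Right, the share of bases (y axis, %) inside HHZ lists along JZ1560 peaks of 3 kb or more (shaded) and their flanks, on the same segments (bands, range over pairs); HHZ H3K4me1 plateaus between 52.2% and 54.5% inside while HHZ H3K4me3 drops from 43.1% to 0.968%.

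H3K4me3 at an end of a JZ1560 peak gave a direction to it, since H3K4me3 marks gene starts. Of the JZ1560 peaks of 3 kb or more, 78.9% had a peak of JZ1560 H3K4me3 replicate 1 within 1 kb of exactly 1 end, 16.2% at both ends and 4.90% at neither. The shares with exactly 1 such end were 70.5% by JZ1560 H3K4me3 replicate 2 and 76.6% by the HHZ H3K4me3 list. Counted from the H3K4me3 end of these one-ended peaks, HHZ H3K4me1 cover rose to 59.5% in the fourth segment and then declined to 38.7% in the ninth. The side nearer to H3K4me3 was covered to 49.8% and the farther side to 42.2%, with 49.2% and 41.2% by the second JZ1560 H3K4me3 list and 51.1% and 43.1% by that of HHZ.

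The lean towards the H3K4me3 end was also present in the inputs. HHZ input peaks covered 36.7% of the nearer side and 28.7% of the farther side, and JZ1560 input peaks 23.1% and 16.8%. Without H3K4me1 peaks that touched a peak of their own input, the excess of the nearer side dropped from 7.85 to 1.87 percentage points. The HHZ midpoints themselves were split nearly evenly, with 52.6% on the nearer side.

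The JZ1560 territory outside HHZ peaks fell into margins, gaps and whole peaks. HHZ peaks covered 41.2% ± 1.09 of the JZ1560 H3K4me1 bases (SD over 4 pairs), or 25.9 Mb. Margins, from the edge of a JZ1560 peak to the nearest HHZ peak in it, made up 30.5% ± 0.563 (19.2 Mb), gaps between HHZ peaks in the same JZ1560 peak 8.67% ± 0.156 (5.46 Mb), and JZ1560 peaks with no HHZ base 19.7% ± 0.555 (12.4 Mb). In the full lists margins were the largest uncovered part, but the order of margins and whole peaks turned with the lists used. At scores of 100 or more, margins were 26.6% and peaks with no HHZ base 42.6%, and without peaks touching an input they were 28.5% and 49.1%.

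A JZ1560 peak that shared bases with a single HHZ peak had a median of 40.3% of its bases covered, with 715 bp bare on one side and 750 bp on the other (medians, means over pairs). Where several HHZ peaks shared a JZ1560 peak, their outer limits spanned a median of 76.6% of it and they covered 59.3%. The gaps between them were short: the median was 315 bp, the quartiles were 107 and 825 bp, and 79.9% were at most 1 kb long. HHZ peaks reached or crossed an edge in 15.3% of the JZ1560 peaks concerned.

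The 3 uncovered parts carried different marks. Gaps matched the covered part in H3K36me3 but not in H3K4me3: HHZ H3K36me3 covered 87.1% of gap bases and 85.5% of covered bases, JZ1560 H3K36me3 covered 92.0% and 88.0%, and HHZ H3K4me3 covered 1.08% and 14.6%. Margins had less H3K36me3 (61.7% in HHZ, 68.1% in JZ1560) and more H3K4me3 (28.7% by the HHZ list and 26.1% and 35.3% by the JZ1560 lists). In JZ1560 peaks with no HHZ base, H3K36me3 covered 43.8% by the HHZ list and 65.2% by the JZ1560 list, so here the cultivars differed in a second mark as well, with 1 library each and no test.

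The other HHZ replicate filled these parts unequally. It covered 81.9% of the covered part, 24.2% of the gaps, 13.4% of the margins and 6.54% of the JZ1560 peaks with no HHZ base. Gaps were therefore called more often in a second HHZ library than margins or empty JZ1560 peaks were. HHZ input peaks held 42.3% of the covered part, 32.7% of the margins, 22.3% of the gaps and 22.9% of the empty peaks, and JZ1560 input peaks 24.8%, 23.7%, 8.65% and 19.9%. HHZ input cover was thus highest where HHZ H3K4me1 was called; its part in the call was not tested.

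**Figure D4:**
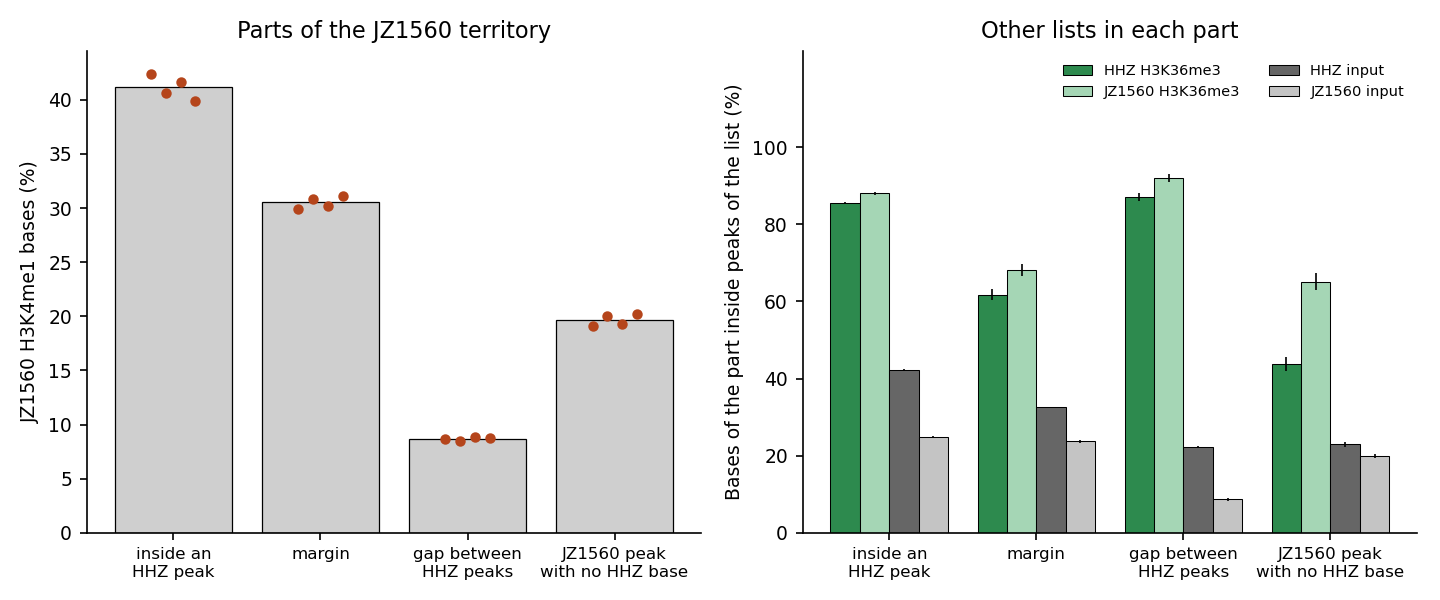
Left, parts of the JZ1560 H3K4me1 territory (y axis, % of bases); bars are means and points the 4 pairs. Right, the share of each part (y axis, %) inside H3K36me3 and input lists, with bars as means and lines as the range over pairs; HHZ H3K36me3 covers 87.1% of gaps and 43.8% of JZ1560 peaks with no HHZ base.

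Wide JZ1560 peaks held HHZ signal more often than narrow ones. HHZ midpoints were found in 23.6% of JZ1560 peaks under 2 kb, 55.7% from 2 to 3 kb, 81.0% from 3 to 5 kb, 91.9% from 5 to 10 kb and 97.2% of 10 kb or more. A longer peak holds a midpoint more often by length alone, so these shares do not compare the density of HHZ peaks. The HHZ cover, a share of bases, rose along the same classes from 15.1% to 54.5%. Score gave a similar ladder: with JZ1560 peaks ranked by score and cut into 4 equal groups, from the lowest to the highest 26.6%, 62.8%, 87.0% and 96.2% held an HHZ midpoint. These groups also differed in width, with medians of 1722 to 1885 bp in the lowest and 6249 to 6432 bp in the highest. Score and width were not separated here. The JZ1560 peaks without HHZ signal were thus mostly the narrow and low-scored ones. Their share depended on the score limit: with peaks of score 100 or more in both lists it was 55.3% instead of 31.8%.

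Some broad JZ1560 peaks had no HHZ H3K4me1 at all. In JZ1560 replicate 1, 3892 peaks (25.3%) shared no base with either HHZ list, and 94.8% of them touched a peak of JZ1560 replicate 2. Their median width was 2052 bp. The widest was chr2:6345553-6364243 (18.7 kb), where JZ1560 H3K36me3 covered all bases and HHZ had no peak in any of its 9 ChIP lists. Neither input had a peak there. The lists of both cultivars use the same coordinates, so sequence absent from HHZ cannot be told from sequence without the mark. The same holds for sequence that is hard to map in HHZ. At chr7:8930427-8943385 (12.96 kb) JZ1560 H3K36me3 covered 89.4% and HHZ H3K36me3 none, while HHZ H3K27me3, the mark of Polycomb silencing, covered 18.1% and 29.0% by replicates 1 and 2 and none by replicate 3, and none was called there in JZ1560. At chr7:29667776-29682487 (14.7 kb) H3K36me3 covered 98.7% in JZ1560 and 14.0% in HHZ.

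The other broad JZ1560-only peaks kept H3K36me3 in HHZ. At chr3:29705777-29721614 (15.8 kb) H3K36me3 covered 88.3% in HHZ and 94.8% in JZ1560, and at chr2:6279325-6292467 (13.1 kb) all bases in both. Among the 5 widest JZ1560-only peaks, H3K36me3 was therefore shared in 2, reduced in 1 and not called in 2.

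Few HHZ peaks lay outside JZ1560 territory, which took up 16.4% and 17.3% of the sequence in replicates 1 and 2, and they were weak. Of the HHZ peaks, 883 in replicate 1 (4.35%, 95% Wilson interval 4.08% to 4.64%) and 822 in replicate 2 (4.05%, 3.79% to 4.33%) shared no base with either JZ1560 list. The intervals cover counting error only. Their median width was 825 and 823.5 bp, against 1134 and 1097 bp for the other HHZ peaks, and their median score 64.1 and 64.2, against 94.9 and 93.4. They recurred in the other HHZ replicate less often, at 60.02% and 64.4% against 85.7% and 86.1%. HHZ H3K36me3 touched 29.1% and 30.8% of them and 89.1% and 89.2% of the others, so most lay outside the domains where H3K4me1 was usually found. Contact with the HHZ input was not raised, at 40.8% and 39.1% against 54.0% and 53.5%, though narrower peaks touch an input peak less easily.

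Along the chromosomes both cultivars had the same landscape at different heights. H3K4me1 covered 10.8% and 10.55% of chromosome 3 in the HHZ replicates and 22.4% and 23.5% in the JZ1560 replicates, the highest of the 12 chromosomes in each library. Chromosome 11 was lowest in each, at 3.78% and 3.72% in HHZ and 10.8% and 11.5% in JZ1560. The inputs followed the same order at these extremes, with 19.1% and 18.5% on chromosome 3 and 5.34% and 5.37% on chromosome 11 in HHZ and JZ1560, and their part in the pattern was not tested.

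The contrast between cultivars varied with the level. The HHZ to JZ1560 ratio of cover was 0.466 on chromosome 3 and 0.336 on chromosome 11, with chromosomes 9 (0.383) and 12 (0.386) next to the lowest. JZ1560 peaks with no HHZ midpoint made up 27.4% on chromosome 3, 39.2% on chromosome 12 and 44.8% on chromosome 11. By contrast, the number of HHZ peaks per occupied JZ1560 peak stayed between 1.72 on chromosome 9 and 1.87 on chromosome 7, and the median widths between 991 and 1167 bp in HHZ and between 3156.5 and 3573 bp in JZ1560. Width and splitting were thus features of every chromosome, while the share of JZ1560 peaks without HHZ signal differed among them.

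H3K4me1 was denser towards chromosome ends in both cultivars. Within 2 Mb of an end it covered 10.6% and 10.4% in HHZ and 22.2% and 23.5% in JZ1560, and more than 10 Mb away 5.71% and 5.57% in HHZ and 13.3% and 13.9% in JZ1560. The ratio of HHZ to JZ1560 fell along this path from 0.459 to 0.415. Of all covered bases, 43.8% and 43.9% lay within 5 Mb of an end in HHZ and 41.6% and 41.7% in JZ1560, where 32.2% of the sequence lies. HHZ was higher by 2.21 percentage points, more than the spread within a cultivar (exact two-sided permutation p = 0.3333, the smallest possible). Without peaks that touched an input peak of their own cultivar the difference was 1.31 points. The HHZ input went from 17.0% to 8.80% over the same distance and the JZ1560 input from 14.98% to 8.84%.

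**Figure D5:**
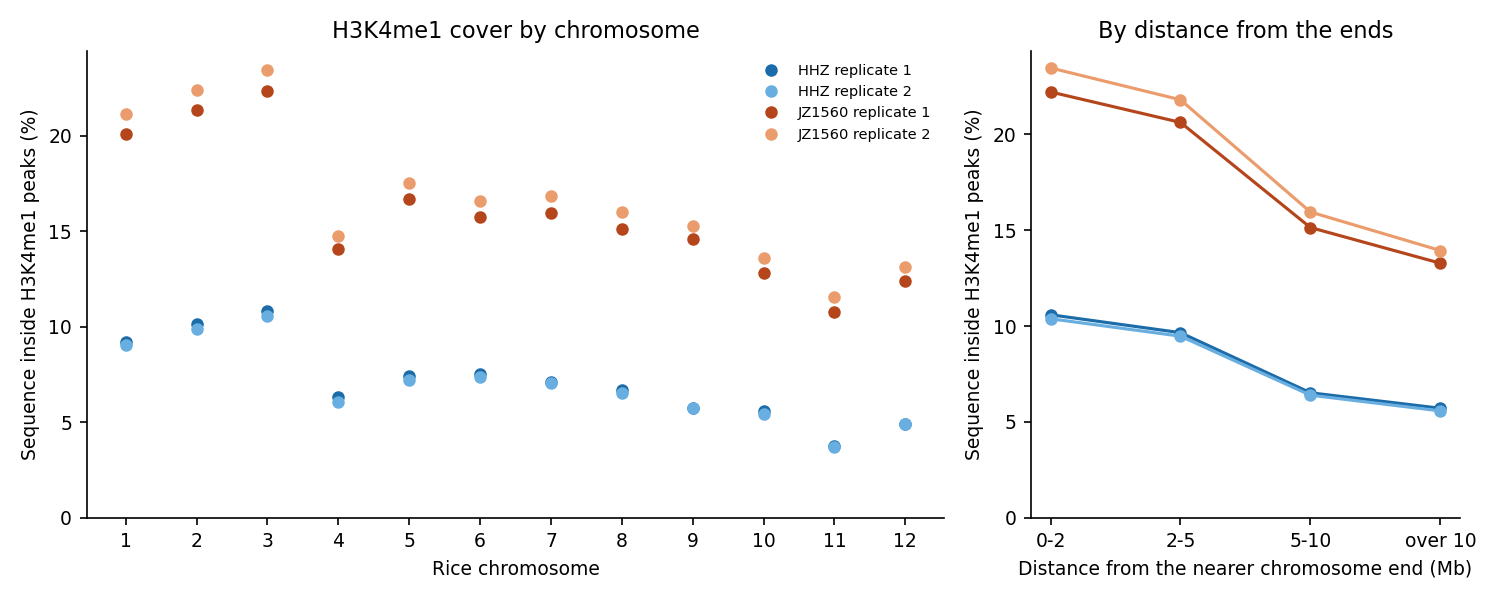
Share of sequence inside H3K4me1 peaks (y axes, %) for each of the 12 chromosomes (left) and by distance from the nearer chromosome end (right, Mb); each point is a library. JZ1560 points lie above HHZ points throughout, with chromosome 3 highest and chromosome 11 lowest in each library.

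In windows of 1 Mb both JZ1560 libraries exceeded both HHZ libraries in 379 of 379 windows (100%), and the reverse occurred in 0 of 379 (0%). With all windows on one side, the count carries no information on where the cultivars differ. Without peaks that touched an input peak of their own cultivar, the numbers were 352 and 10. The ratio of HHZ to JZ1560 cover, taken in the 362 windows with at least 5% cover in JZ1560, had a median of 0.427, quartiles of 0.364 and 0.467, and a range from 0.137 to 0.595. Window covers ranked alike in both cultivars (Spearman's rho 0.972 over 379 windows, against 0.994 within HHZ and 0.999 within JZ1560), as a description of windows that share their libraries.

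The windows of lowest ratio stood well below the first quartile. On chromosome 10 from 7 to 8 Mb, HHZ covered 0.999% and 0.703% and JZ1560 6.002% and 6.47%, a ratio of 0.137. On chromosome 11 from 1 to 2 Mb, HHZ covered 2.04% and 2.02% and JZ1560 13.3% and 14.9%, a ratio of 0.144. On chromosome 12 from 1 to 2 Mb, the values were 2.44% and 2.87% against 14.7% and 15.9%, a ratio of 0.174. Other windows up to 4 Mb of chromosomes 11 and 12 were looked up after these values were seen. From 0 to 1 Mb the ratios were 0.183 and 0.226. They were 0.422 and 0.347 from 2 to 3 Mb, and 0.354 and 0.485 from 3 to 4 Mb.

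The starts of chromosomes 11 and 12 are known in rice as a recent duplication of each other, and short reads from near-identical copies are hard to place, so values there are uncertain. From 1 to 2 Mb on chromosome 11 the inputs covered 2.18% in HHZ and 4.05% in JZ1560, against 5.34% and 5.37% of the whole chromosome. The corresponding window on chromosome 12 had 6.03% and 5.45%, against 6.77% and 5.98%. The part of read placement in these ratios was not tested. At the other extreme, the ratio was 0.595 on chromosome 12 from 20 to 21 Mb, 0.592 on chromosome 6 from 10 to 11 Mb and 0.576 on chromosome 6 from 26 to 27 Mb. The first of these windows contains the widest HHZ peak, which lay inside both inputs.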

How the data were processed

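Peaks were called with MACS for each library separately, per the file headers. Each deposited list gives a sequence name, start, end, peak name and score; the score is the value the authors deposited from the peak caller, on a scale the headers do not define. The sources used here do not give the peak threshold, control library, aligner settings or genome build, and the depth of the libraries is unknown. Coordinates are those of the lists, counted from 1, on sequences 1 to 12 plus 2 unplaced ones, and both cultivars were compared on them; each sequence was taken to end at its last peak, for 374 Mb in all. Gene positions on these coordinates were not used here.

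Analysis used Python 3.11.15, NumPy 2.4.6, pandas 2.3.3, SciPy 1.17.1 and Matplotlib 3.10.9, with the interval steps checked on simulated peaks. A peak belongs to the peak holding its midpoint. Cover is the share of bases inside peaks. Group values were compared with exact two-sided permutation tests over libraries, 4 in all. They are given unadjusted, because none could pass 0.05 and equal p-values do not change under Benjamini-Hochberg adjustment.

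Regions named are the 3 widest peaks per list, the 5 JZ1560 replicate 1 peaks with most HHZ midpoints and the 5 widest with no HHZ base, and the 3 lowest and 3 highest 1 Mb windows by ratio; the text names part of the first kind. Members, rules and alternatives were chosen with earlier results of these data known. The split into margins, gaps and empty peaks and the orientation by H3K4me3 were chosen after values were seen. Alternatives were a score of 100 or more, equal peak numbers, no peaks touching the input of the same cultivar, joined peaks, other overlap rules and each library left out.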

Additional observations from a re-analysis of the deposited data

How the results depend on the processing

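Of 139 alternatives, 91 were counted as unchanged. They kept the direction of a tested difference, stayed within the spread over pairs or, for the count of windows, stayed near the main count. The window count without peaks touching an input, 352 with 10 the other way, was among them. Another 45 left the spread over pairs, and 3 reversed a direction. Many of the 91 only left out a library or used the replicate number as a block, which reuses the same lists and can change little. Width, covered length and the share near chromosome ends kept their direction in every alternative run. Without peaks touching an input, which shortened both lists, the covered length difference was -11.1 Mb (10.9 Mb in HHZ, 21.9 Mb in JZ1560). The difference near ends was then 1.31 percentage points. The peak number difference turned to -5207 at scores of 100 or more and to -249.5 and -563.5 with peaks joined across 1000 and 2000 bp; with equal peak numbers it has no value. The following are the share of HHZ peaks in a JZ1560 peak, HHZ peaks per JZ1560 peak and JZ1560 peaks without an HHZ peak, in this order. They were 97.5%, 1.39 and 55.3% at scores of 100 or more, 96.2%, 1.63 and 41.0% with equal numbers, 93.6%, 1.72 and 38.7% with HHZ peaks of at most 2000 bp, and 87.4%, 1.79 and 35.9% with HHZ peaks wholly inside. Without peaks touching an input they were 35.5%, 1.52 and 63.4%, where removing a JZ1560 peak also removes the host of its HHZ peaks. Sharing of 1 bp gave 95.3%. Joining across 500, 1000 and 2000 bp gave 1.38, 1.29 and 1.22 per peak and 30.6%, 29.6% and 27.8% without.

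The central of 3 equal parts held 48.8% of midpoints at scores of 100 or more, 44.4% with equal numbers, 41.7% without input, 39.3% with HHZ peaks of at most 2000 bp, 39.4% in JZ1560 peaks of at least 3000 bp, 60.6% with a single HHZ midpoint and 29.7% placed by free room. The ratio of outer to central cover was 0.305 at scores of 100 or more and 0.352 with equal numbers. Leaving out 1 library gave differences of -2403.5 to -2234.5 bp, 4777.5 to 4907.5 peaks, -37.5 to -34.2 Mb and 2.15 to 2.27 percentage points near ends, and 93.9% to 94.9%, 1.81 to 1.83, 31.6% to 32.1%, 42.1% to 42.6%, 0.364 to 0.401 and 379 windows.

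Of JZ1560 bases, covered, margin, gap and empty parts, a split chosen after seeing the data, were 27.2%, 26.6%, 3.70% and 42.6% at scores of 100 or more, and 17.2%, 28.5%, 5.26% and 49.1% without input. The cause was not tested for any of these.

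With the replicate number as a block, the differences stayed at -2319 bp, 4842.5 peaks, -35.8 Mb and 2.21 percentage points (exact sign-flip p = 0.5, the smallest that 2 pairs allow). Same-numbered libraries did not deviate together (r = -0.140 over 379 windows), and pairing crossed numbers gave p = 0.5 as well, so the numbers were not taken as pairs. Depth is unknown, and its part in every contrast was not tested.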
